A study of Mus musculus with 10 samples.

Results

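The comparison was between 2 doses of kainate, 18 and 14 mg/kg, in the hippocampus of mice that carry A-CREB. It rested on 4 of the 10 arrays of the series, the 2 titled as A-CREB with kainate at 18 mg/kg and the 2 titled as A-CREB with kainate at 14 mg/kg, and the arrays were paired by the replicate number in their titles. The mice were 3 weeks old, with the strain given as TetO-A-CREB-95 C57BL6 F1/J, and each array held RNA pooled from 3 to 4 of them. The 2 A-CREB saline arrays, from mice of the same strain and age, served as the unstimulated level. The 2 wild-type saline and 2 wild-type kainate arrays (14 mg/kg, strain C57BL6 F1/J where it is given) were used to choose a list of inducible genes, by a contrast between wild-type arrays. No wild-type group received 18 mg/kg. The sources used here name neither the line that drives the TetO transgene nor the seizure scores or the time from injection to dissection.

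Kainate is an agonist of the kainate class of glutamate receptors and is used to provoke seizures that start in the hippocampus. Strong firing there raises calcium in neurons, activates kinases and switches on immediate-early genes, first transcription factors such as Fos, Egr and Npas4 and then effectors such as Bdnf and Homer1. CREB binds the cAMP-response element in promoters and is one of the factors that carry this signal. A-CREB is a dominant-negative partner of CREB that keeps it from binding DNA, and both doses were given to mice that carry it.

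The labelled tissue was checked on the pyramidal and granule cell markers. The 8 tested CA1 markers had summed signals of 13642 to 15598 on the 6 A-CREB arrays, and Wfs1, a CA1 marker, had 2064 and 1713 at 18 mg/kg against 2252 and 2039 at 14 mg/kg. The median dose difference was -0.03 for CA1 markers, 0.07 for the 9 CA3 markers and 0.05 for the 13 dentate granule markers on the log2 scale. Creb1, the factor that A-CREB inhibits, had signals of 2307 and 1605 at 18 mg/kg and 1714 and 1884 at 14 mg/kg. The 2 dose groups of Creb1 overlapped, and its difference was 0.10 (SE 0.17) by its brightest probe set. Other probe sets gave -0.59, -0.25, 0.02 and 0.64, so the direction of Creb1 depended on the probe set. The deposited signal of all 10 arrays had been scaled to a common trimmed mean, while the median signal was 94.9 to 106 on arrays numbered 1 and 135 to 152 on those numbered 2.

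No gene was found to differ between 18 and 14 mg/kg. Of 13218 genes tested with limma, in a fit of all 10 arrays with the replicate number as a block, 0 passed an adjusted p of 0.05, which is 0% of the genes tested. The smallest adjusted p was 0.9998. An unadjusted p below 0.05 was reached by 399 genes, where 661 would be reached by chance alone. With only the 4 A-CREB kainate arrays fitted, 691 genes reached it, so this number depended on the arrays that gave the spread. Differences are given as log2(signal + 22) at 18 mg/kg minus that at 14 mg/kg, a scale that understates changes of dim genes. The standard error of a gene's dose difference had a median of 0.19, with 2 arrays a group. For 11931 genes (90.3%) the 95% interval lay within -1 to 1, so that a 2-fold difference between the doses was outside the interval of these genes. The remaining genes had wider or shifted intervals and are not shown to be alike.

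The dose differences of the 2 pairs of pools were unrelated over the genes as a whole. The difference in arrays numbered 1 and that in arrays numbered 2 had a Pearson correlation of -0.02 and a Spearman correlation of -0.03 across genes, which are not independent replicates. Both differences had the same sign in 6317 genes, 47.8% of those tested. Each pair had genes past a log2 difference of 1, 190 in arrays numbered 1 and 185 in arrays numbered 2. Only 9 of these genes passed it in the same direction in both pairs, and 7 passed it in opposite directions. At a log2 difference of 0.5 the counts were 150 in the same and 157 in opposite directions.

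**Figure D1:**
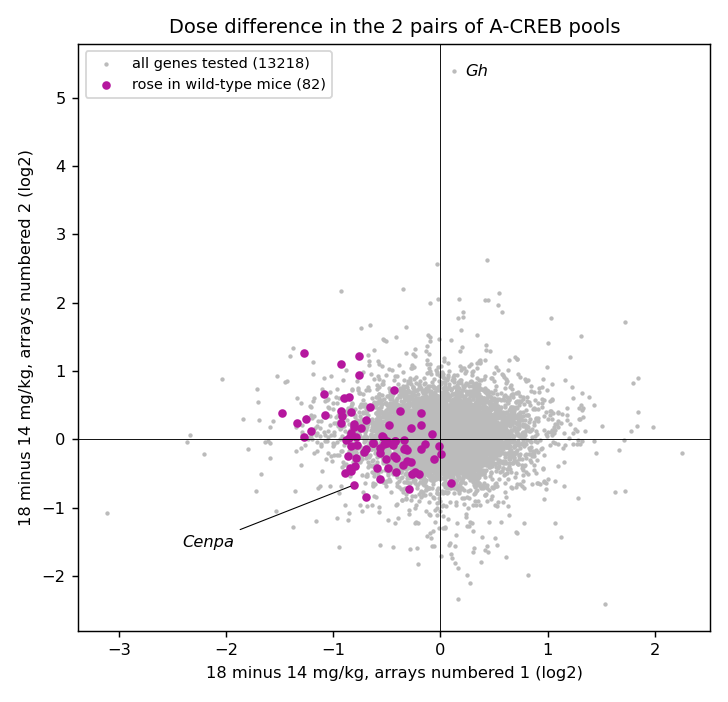
Dose difference (log2, 18 minus 14 mg/kg) of each of 13218 genes in arrays numbered 1 (x axis) against arrays numbered 2 (y axis), with the 82 genes that rose in wild-type mice in magenta. The grey cloud has no slope (correlation -0.02). Most magenta points lie left of 0 on the x axis and on both sides of 0 on the y axis, Cenpa lies below 0 on both axes, and Gh stands alone at 5.395 on the y axis.

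Activity-regulated genes were raised at both doses. The list of genes that rose in wild-type mice after 14 mg/kg held 82 genes (0.62% of those tested), and their choice used the contrast of the wild-type arrays, while the filter and the spread came from all 10. Leaving out 1 A-CREB array at a time gave 65 to 106 such genes. At 14 mg/kg, 74 of the 82 rose in A-CREB mice against A-CREB saline, with a median log2 response of 1.82, where 1.1% of all tested genes rose. At 18 mg/kg, 57 of the 82 rose, with a median of 1.43, where 0.673% of all tested genes rose. Without the replicate block the counts were 39 and 30, with no intensity trend 51 and 18, and 42 rose at 18 mg/kg with no filter. The 18 mg/kg count was 58 without replicate 1 and 32 without replicate 2 of that dose, and the 14 mg/kg count was 50 without replicate 1 and 52 without replicate 2 of that dose. The responses to the 2 doses share the saline arrays, and the difference between them is the dose difference itself. That difference had a median of -0.31 over the 82 genes and lay below 0 in 75 of them, against a median of 0.02 over all genes. None of the 82 passed the test, and 18 had an unadjusted p below 0.05, each with a lower level at 18 mg/kg. Over all 13218 tested genes, 399 had such a p. The 95% interval lay within -1 to 1 for 64 of the 82 genes.

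The lower mean level was that of 1 of the 2 pools at 18 mg/kg. Averaged over the 82 genes, log2(signal + 22) was 9.41 on both A-CREB saline arrays. It was 11.31 and 11.26 on replicates 1 and 2 at 14 mg/kg, and 10.70 and 11.26 on replicates 1 and 2 at 18 mg/kg. The wild-type kainate arrays, which helped to choose the genes, had 11.18 and 11.05. Replicate 1 at 18 mg/kg was thus the lowest of the 6 kainate arrays and lay above every saline array, and replicate 2 at 18 mg/kg was level with the 14 mg/kg arrays. The median dose difference of the 82 genes was -0.58 in the pair numbered 1 and -0.05 in the pair numbered 2. It was below 0 for 80 of the 82 genes in the pair numbered 1, for 48 in the pair numbered 2 and for 46 in both. Without replicate 1 at 18 mg/kg the median was -0.0004, and without replicate 2 at 18 mg/kg it was -0.64. With 2 pools at each dose, a difference of 1 pool and an effect of the dose cannot be told apart.

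**Figure D2:**
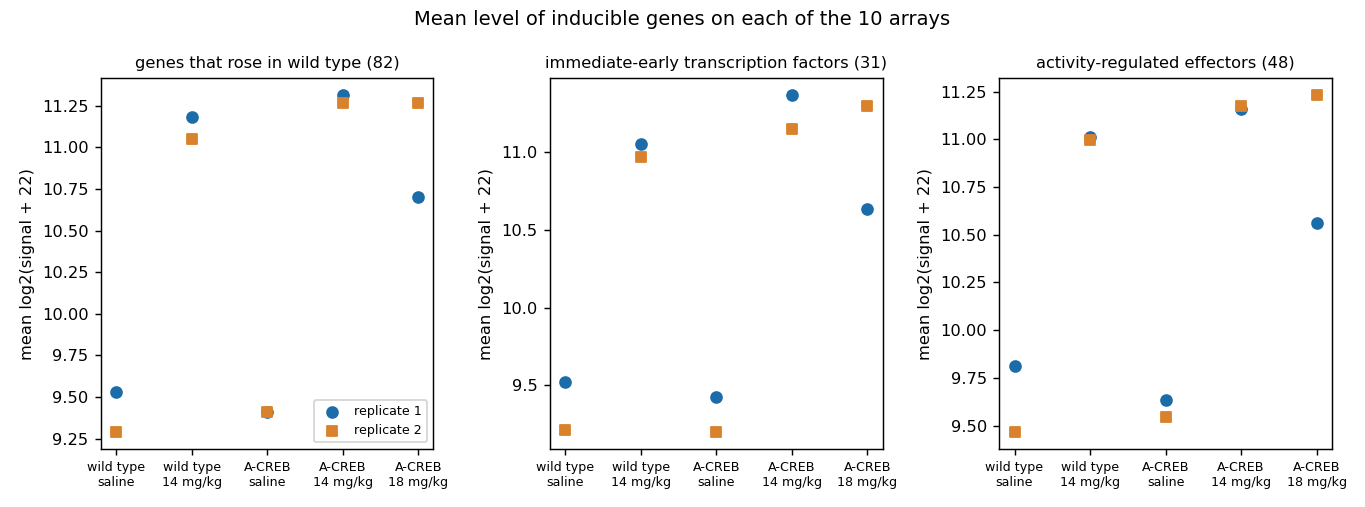
Mean log2(signal + 22) on each of the 10 arrays for the 82 genes that rose in wild-type mice, 31 immediate-early transcription factors and 48 activity-regulated effectors, with replicate 1 as circles and replicate 2 as squares. In each panel replicate 1 at 18 mg/kg (10.70, 10.63 and 10.56) is the lowest of the 6 kainate arrays, and replicate 2 at 18 mg/kg (11.26, 11.29 and 11.23) is near the 14 mg/kg arrays.

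Of the immediate-early transcription factors, 31 of 32 listed genes were tested. Of these 31, 23 rose at 14 mg/kg and 20 rose at 18 mg/kg, where 1.1% and 0.673% of all tested genes rose. Of the 31, 0 differed between the doses and 30 had a dose difference below 0, with a median of -0.34. The median was -0.77 in the pair numbered 1 and 0.03 in the pair numbered 2.

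Npas4, a neuron-specific bHLH-PAS factor induced by calcium entry, had signals of 160.1 and 148 after saline, 16278 and 12169.7 at 14 mg/kg, and 8526 and 14293 at 18 mg/kg (replicates 1 and 2). The 2 doses overlapped, both far above saline. Npas4 rose 80.2-fold at 14 mg/kg (log2 6.32, SE 0.23, limma adjusted p = 2.66e-09) and 62.9-fold at 18 mg/kg (log2 5.97, SE 0.23, limma adjusted p = 5.75e-09). Its dose difference was -0.35 (95% interval -0.84 to 0.14).

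Fos, the AP-1 subunit that is the classic marker of recent activity, had 1493 and 1688 after saline, 20356 and 16819.5 at 14 mg/kg, and 15194 and 16466 at 18 mg/kg. Its 2 arrays at 18 mg/kg lay below both arrays at 14 mg/kg, by a log2 difference of -0.42 in the pair numbered 1 and -0.03 in the pair numbered 2. Fosb, its close relative, had 191 and 118 after saline, 4649 and 3612 at 14 mg/kg, and 1653 and 4731 at 18 mg/kg. The pool numbered 1 at 18 mg/kg was the lowest and the pool numbered 2 the highest of the 4 kainate pools for Fosb, with pair differences of -1.48 and 0.39.

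Atf3, a stress-induced bZIP repressor, showed the same order, with 87.4 and 90.6 after saline, 1642 and 1482 at 14 mg/kg, and 677 and 1833 at 18 mg/kg. Junb, another AP-1 subunit, had 743 and 407 after saline, 5581 and 2433 at 14 mg/kg, and 2609 and 3868 at 18 mg/kg, so that the 18 mg/kg arrays lay between the 14 mg/kg arrays. Each of these genes rose at both doses, Atf3 by 3.83 and 3.36, Fosb by 4.58 and 4.03, Fos by 3.52 and 3.30 and Junb by 2.69 and 2.48 at 14 and 18 mg/kg. Without the replicate block, the Junb response missed the threshold at 14 mg/kg (limma adjusted p = 0.0658) and at 18 mg/kg (limma adjusted p = 0.146).

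The transcription factors with the smallest p of the list were Egr4, Per1 and Nr4a3, none past the threshold. That choice favours genes whose doses do not overlap. Egr4, a zinc-finger factor of the Egr family, had 2455 and 1691 at 14 mg/kg against 999 and 1732 at 18 mg/kg, a difference of -0.62 (95% interval -1.13 to -0.12). Per1, a clock gene with known cAMP-response elements, had 1273 and 1353 at 14 mg/kg against 766 and 1184 at 18 mg/kg, where saline gave 762 and 714. Both 18 mg/kg arrays of Per1 lay below both 14 mg/kg arrays, and Per1 rose at 14 mg/kg (0.81, limma adjusted p = 0.0452) and not past the threshold at 18 mg/kg (0.36, limma adjusted p = 0.587), a contrast whose own test is the dose difference of -0.45 (SE 0.18). The Per1 call at 14 mg/kg was lost under 11 of 22 alternatives, among them the fit without the replicate block (limma adjusted p = 0.57). Nr4a3, an orphan nuclear receptor, had a difference of -0.38 by its brightest probe set and 0.10 by another, so its direction depended on the probe set.

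The mean level of effector genes was also lowest, among the kainate arrays, on replicate 1 at 18 mg/kg. Of 48 tested effectors, 34 rose at 14 mg/kg and 25 at 18 mg/kg, where 1.1% and 0.673% of all tested genes rose. Of the 48, 0 differed between the doses and 43 had a dose difference below 0. The effectors had a median of -0.26 (-0.56 and -0.05 in the pairs numbered 1 and 2), against 0.02 over all genes. Ptgs2, the inducible cyclooxygenase, had 490.3 and 502 after saline, 4561 and 6297 at 14 mg/kg, and 2463 and 6252 at 18 mg/kg. Ptgs2 was lowest of the kainate arrays in replicate 1 at 18 mg/kg and nearly equal in the pair numbered 2, where the difference was -0.01. Inhba, the activin A subunit, had 233 and 117 after saline, 1720.0 and 3187 at 14 mg/kg, and 989 and 2642 at 18 mg/kg. The doses overlapped for Inhba, which rose by 3.65 and 3.12 at 14 and 18 mg/kg. Bdnf, the neurotrophin, had 1069 and 1032 after saline, 4175 and 5978 at 14 mg/kg, and 3452 and 4748 at 18 mg/kg. Its dose difference was -0.30 (SE 0.21), with -0.27 and -0.33 in the 2 pairs.

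Several inducible genes were lower in 1 pair and higher in the other. Gadd45b and Gadd45g, small proteins of the stress response, had 3471 and 2755, and 6588 and 4837, at 14 mg/kg. At 18 mg/kg they had 1829 and 3499.7, and 3871 and 9294. Btg2, an antiproliferative regulator of mRNA decay, had 499 and 683 after saline, 5654 and 2610.1 at 14 mg/kg, and 3326 and 6078 at 18 mg/kg. Ccn1, a matricellular protein, had 186 and 295 after saline, 3379 and 1851 at 14 mg/kg, and 1382 and 4485 at 18 mg/kg. For Ccn1 the pair differences of -1.28 and 1.27 left a dose difference of -0.0048 (95% interval -0.85 to 0.84) by its brightest probe set. Other probe sets of Ccn1 gave 0.09, 0.90 and 1.05, so its size depended on the probe set. Among the 12 genes with the largest wild-type rise, 12 rose at each dose, 12 were lower at 18 mg/kg in the pair numbered 1, and 4 were lower in the pair numbered 2. Under the alternatives, Btg2 missed the threshold in 4 of 22 at 14 mg/kg and 3 of 22 at 18 mg/kg. Ccn1, Gadd45b, Gadd45g, Inhba and Junb missed it in at most 3 at a dose.

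**Figure D3:**
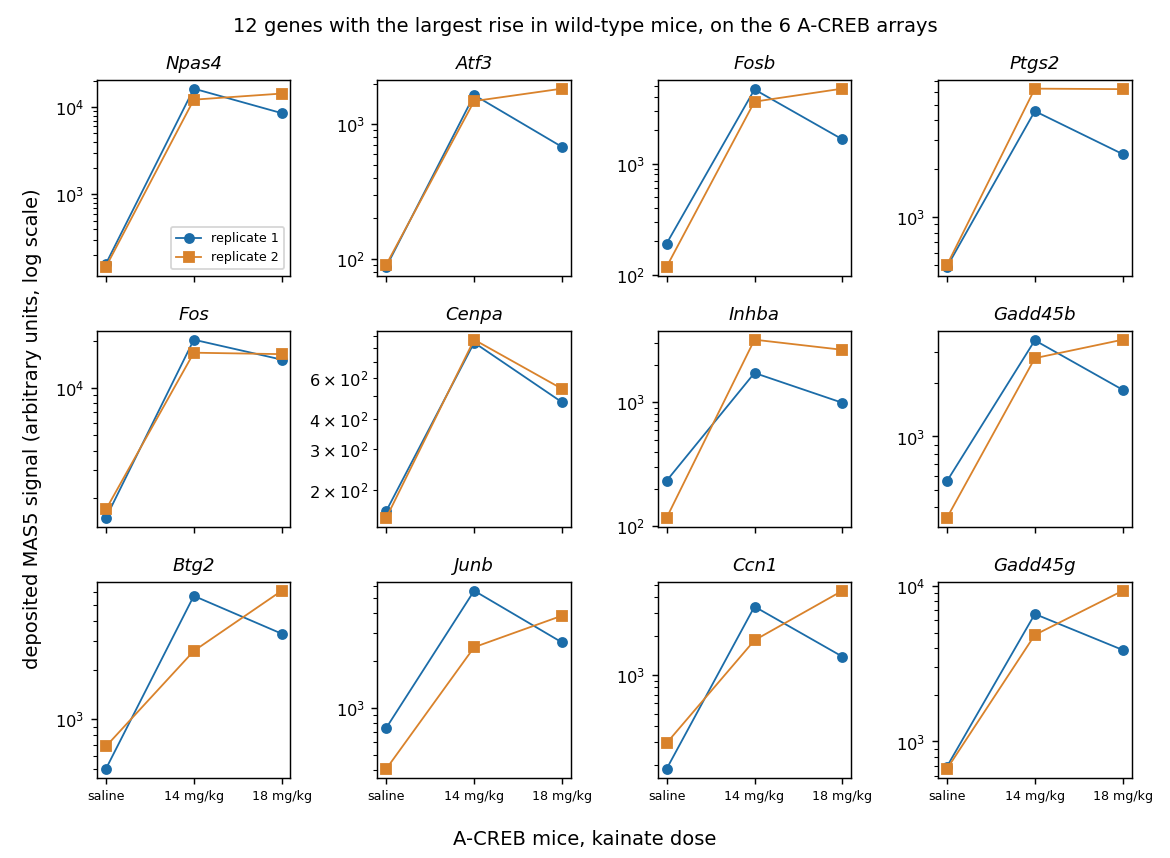
Deposited MAS5 signal (log axis) after saline, 14 and 18 mg/kg kainate in A-CREB mice for the 12 genes with the largest rise in wild-type mice, with 1 line per replicate number. In each panel the line of replicate 1 falls from 14 to 18 mg/kg, while that of replicate 2 rises in 8 of 12 panels, and Cenpa falls in both by similar amounts (-0.81 and -0.67).

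Cenpa, the centromeric histone H3 variant, and Sertad1, a cyclin-dependent kinase cofactor, were among the 8 lower genes with the smallest p. Of these 8, only Cenpa and Sertad1 rose past the threshold against A-CREB saline. A choice by smallest p favours genes whose doses do not overlap, so a lack of overlap adds no further support. Cenpa had 163 and 153 after saline, 843 and 868 at 14 mg/kg, and 472 and 537 at 18 mg/kg. Its 2 doses did not overlap and lay apart by more than the spread within each. Its dose difference was -0.74 (SE 0.17, 95% interval -1.10 to -0.37, unadjusted p = 0.000688), which did not pass over all genes (limma adjusted p = 0.9998). Cenpa rose at both doses, by 2.28 at 14 mg/kg (limma adjusted p = 8.72e-06) and by 1.54 at 18 mg/kg (limma adjusted p = 0.000302). Sertad1 had 349 and 247 after saline, 1286 and 871 at 14 mg/kg, and 681 and 613 at 18 mg/kg, again without overlap. Sertad1 had a dose difference of -0.69 (SE 0.20) and rose by 1.77 at 14 mg/kg (limma adjusted p = 0.000194) and by 1.08 at 18 mg/kg (limma adjusted p = 0.018). Without the replicate block the Sertad1 response missed the threshold at both doses (limma adjusted p = 0.128 and 0.9999), and at 18 mg/kg it missed it under 5 of 22 alternatives in all.

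Of 30 listed CREB targets tested, 23 rose at 14 mg/kg and 22 at 18 mg/kg, where 1.1% and 0.673% of all tested genes rose. Of the 30, 0 differed between the doses and 24 had a dose difference below 0. Their median was -0.27 (-0.73 and 0.04 in the pairs numbered 1 and 2), against 0.02 over all genes. Many of the targets are also in the list of transcription factors or that of effectors, so the lists are not independent.

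The promoters of the inducible genes are shown for the element that A-CREB keeps CREB from binding. Promoter sequences from 250 bases before to 50 bases after the start came from RefSeq (GRCm38.p6), with an entry for 69 of the 82 genes and 10656 of the 13218 tested genes. The full element TGACGTCA, which reads the same on both strands, was found in 8 of the 69 (11.6%) and in 3.4% of the tested genes with an entry. The shorter TGACG or its reverse CGTCA, parts of the full element, was found in 43 of the 69 (62.3%) and in 34.2% of the tested genes with an entry. Stretches of 40 bases around the full element follow for 7 of the 8 genes, since they show the site with its flanks, on the strand of the gene and with the element in capitals; in Nsmce3 the element lies after the start.
Btg2: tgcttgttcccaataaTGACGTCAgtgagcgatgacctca
Dusp1: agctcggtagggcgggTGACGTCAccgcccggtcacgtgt
Errfi1: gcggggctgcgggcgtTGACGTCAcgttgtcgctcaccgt
Maff: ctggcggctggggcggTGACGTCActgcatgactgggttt
Pcsk1: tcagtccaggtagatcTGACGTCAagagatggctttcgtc
Plk2: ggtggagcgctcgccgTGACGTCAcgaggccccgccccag
Scg2: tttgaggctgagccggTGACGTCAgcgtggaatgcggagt

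The stretches lie at chr1:134079298-134079337 (minus strand) for Btg2, chr17:26508592-26508631 (minus) for Dusp1, chr4:150855003-150855042 (plus) for Errfi1 and chr15:79347475-79347514 (plus) for Maff. Those of Pcsk1, Plk2 and Scg2 lie at chr13:75089763-75089802 (plus), chr13:110394966-110395005 (plus) and chr1:79440071-79440110 (minus). The element begins between 166 bases (Btg2) and 29 bases (Maff) before the start. Maff encodes a small bZIP partner, Dusp1 a phosphatase of MAP kinases, Errfi1 a brake of the EGF receptor, Plk2 a kinase of synapses, and Scg2 and Pcsk1 a granin and a prohormone convertase of dense-core vesicles. The median response of the 8 genes with the full element was 1.86 at 14 mg/kg and 1.74 at 18 mg/kg, with a dose difference of -0.26. In the 26 genes with neither TGACG nor CGTCA the medians were 1.81 and 1.33, with a dose difference of -0.35. Among single genes the dose difference ran from -0.42 for Maff to 0.23 for Btg2. A match of letters is a description of the window and does not show that CREB binds there.

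Of the 8 higher genes with the smallest p, 4 were dim in replicate 1 at 14 mg/kg. Col18a1, the collagen that yields endostatin, had 19.1 and 25.7 at 14 mg/kg and 114 and 134 at 18 mg/kg, where saline gave 60.3 and 107. Its 18 mg/kg arrays lay above and its 14 mg/kg arrays below both saline arrays. The dose difference of Col18a1 was 1.72 (SE 0.35, 95% interval 0.97 to 2.47, unadjusted p = 0.000225), equal in both pairs (1.73 and 1.71), and did not pass (limma adjusted p = 0.9998). C330022C24Rik had 22.2 and 92.2 at 14 mg/kg and 137 and 191 at 18 mg/kg, and 1700020L24Rik 32.2 and 76.3 against 167 and 151. Krtap12-1, a keratin-associated protein, overlapped between the doses, with 43.6 and 192 against 132 and 341. In the 4 genes replicate 1 at 14 mg/kg (19.1 to 43.6) lay below its array's median signal of 100.5.

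Brighter genes on the same side were Kdm6a, Poglut2, Rflna and Smyd4. Kdm6a, an X-linked demethylase of histone H3, had 374 and 484 at 14 mg/kg and 626 and 719.9 at 18 mg/kg. The doses did not overlap, which the choice of genes by smallest p favours. The difference of Kdm6a was 0.63 (SE 0.16), and another probe set gave 0.44. Poglut2, a glucosyltransferase, had a difference of 0.68 (0.77 and 0.58 in the pairs), Rflna, a filamin-binding refilin, 0.77 (0.96 and 0.58) and Smyd4, a SET and MYND domain protein, 0.69 (0.48 and 0.90). Other probe sets gave 0.065 for Poglut2 and 0.0059 for Smyd4, so both differences depended on the probe set. None of the 8 differed from A-CREB saline at either dose by the limma test.

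Besides Cenpa and Sertad1, the 8 lower genes with the smallest p held Cyp2c38, Plcb3, Cldn1, Ptgis, Flna and Sgms2. Plcb3, a phospholipase C that couples to G proteins, had 168 and 108 at 14 mg/kg and 76.6 and 21.9 at 18 mg/kg. Ptgis, prostacyclin synthase, had 143 and 159 against 67.0 and 71.3. Flna, filamin A, had 508 and 467 against 321 and 285. At 18 mg/kg Plcb3, Ptgis and Cyp2c38 were dim, below the median signals of 106 and 152 of arrays 1 and 2. After A-CREB saline Plcb3 had 136 and 74.0. The doses did not overlap in Plcb3, Ptgis and Flna, whose differences were -1.26 (SE 0.33), -0.92 (SE 0.27) and -0.65 (SE 0.19). The choice by smallest p favours such genes, and the share of all tested genes without overlap was not counted. Cldn1, a tight junction claudin, had a difference of -0.78 by its brightest probe set and -0.16 by another. Sgms2, a sphingomyelin synthase, had 350.4 and 535 against 209 and 262 (a difference of -0.83, and -0.40 by another probe set), and Cyp2c38, a cytochrome P450, 78.6 and 184 against 12.6 and 77.6. After A-CREB saline Sgms2 had 205 and 196, and its response at 14 mg/kg was near the threshold (1.03, limma adjusted p = 0.0635). That response passed under some alternatives, among them the fit of only the 6 A-CREB arrays (limma adjusted p = 0.0458).

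When only the 4 A-CREB kainate arrays were fitted, with 1 residual degree of freedom, 3 genes passed. Rps27, a small-subunit ribosomal protein, had 185 and 196 at 14 mg/kg and 492 and 602 at 18 mg/kg, where saline gave 264 and 597. Its difference was 1.42 (limma adjusted p = 0.00149 in that fit and 0.9998 with all 10 arrays). The 18 mg/kg arrays of Rps27 were within or just above the saline values, and the 23 ribosomal protein genes tested, Rps27 included, had a median of -0.0068. Cxcl14, a chemokine of interneurons and other cells, had 591 and 1045 at 14 mg/kg and 1082 and 1815 at 18 mg/kg (difference 0.82, limma adjusted p = 0.0382 in that fit). Homer1, a postsynaptic scaffold gene with an inducible short form, had 11377 and 14007 at 14 mg/kg and 6309 and 10497 at 18 mg/kg (difference -0.63, limma adjusted p = 0.0382 in that fit). Homer1 rose at both doses, by 3.26 and 2.63, from 1465 and 1152 after saline, and its call was lost under 1 of 22 alternatives at 14 mg/kg and 3 at 18 mg/kg. With the mean of its probe sets in place of the brightest, the Homer1 response at 18 mg/kg was 0.86 (limma adjusted p = 0.321), so its size depended on the probe set.

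Lists of other pathways had medians nearer to 0. Of 17 heat shock genes, 6 had a difference above 0 and 11 below, 0 passed, and the median was -0.05. Hspa1a, the inducible HSP70, had 579.9 and 869.8 after saline, 960.5 and 1638 at 14 mg/kg, and 1225 and 3587 at 18 mg/kg. Replicate 2 at 18 mg/kg was the highest of the A-CREB arrays for Hspa1a, and the doses overlapped. Hspa1a rose at 18 mg/kg (1.53, limma adjusted p = 0.0243) and not past the threshold at 14 mg/kg (0.80, limma adjusted p = 0.284), with a dose difference of 0.73 (SE 0.29, limma adjusted p = 0.9998). The Hspa1a call at 18 mg/kg was lost under 8 of 22 alternatives, with a response of 0.91 without replicate 2 at 18 mg/kg (limma adjusted p = 0.415) and an adjusted p of 0.799 without the replicate block. Hspa1b, whose sequence is nearly that of Hspa1a so that probes may read both, had 2428 and 3755 against 2444 and 7885.

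Cytokine and chemokine genes had a median of -0.11 over 15 tested, with 0 past the threshold. Ptx3, a secreted pentraxin, had 264 and 363 at 14 mg/kg and 154 and 192 at 18 mg/kg, a difference of -0.77 (SE 0.24). Socs3, a brake of cytokine signalling, rose at both doses (2.18 and 1.81) with 631 and 789 against 489 and 601, and its call at 18 mg/kg was lost under 3 of 22 alternatives. Of 13 reactive astrocyte genes 0 passed and the median was -0.04. Lcn2, lipocalin 2, had 437 and 394 at 14 mg/kg and 110.2 and 355 at 18 mg/kg, so that replicate 1 at 18 mg/kg lay between the saline values of 158 and 104.

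Receptor and channel genes had medians near 0. The medians were -0.04 for 22 glutamate receptor genes, 0.05 for 9 GABA-A receptor genes and 0.0022 for 37 ion channel genes, and 0 of them passed. Of 12 genes of the CREB family and its coactivators, 7 lay above and 5 below 0, with a median of 0.02 and 0 past the threshold. Crtc2, a coactivator of CREB, had 68.4 and 13.2 at 14 mg/kg and 98.6 and 123 at 18 mg/kg, low signals on every array. The medians of the ER chaperone, oxidative phosphorylation and neuropeptide lists were -0.0086, -0.01 and -0.05.

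**Figure D4:**
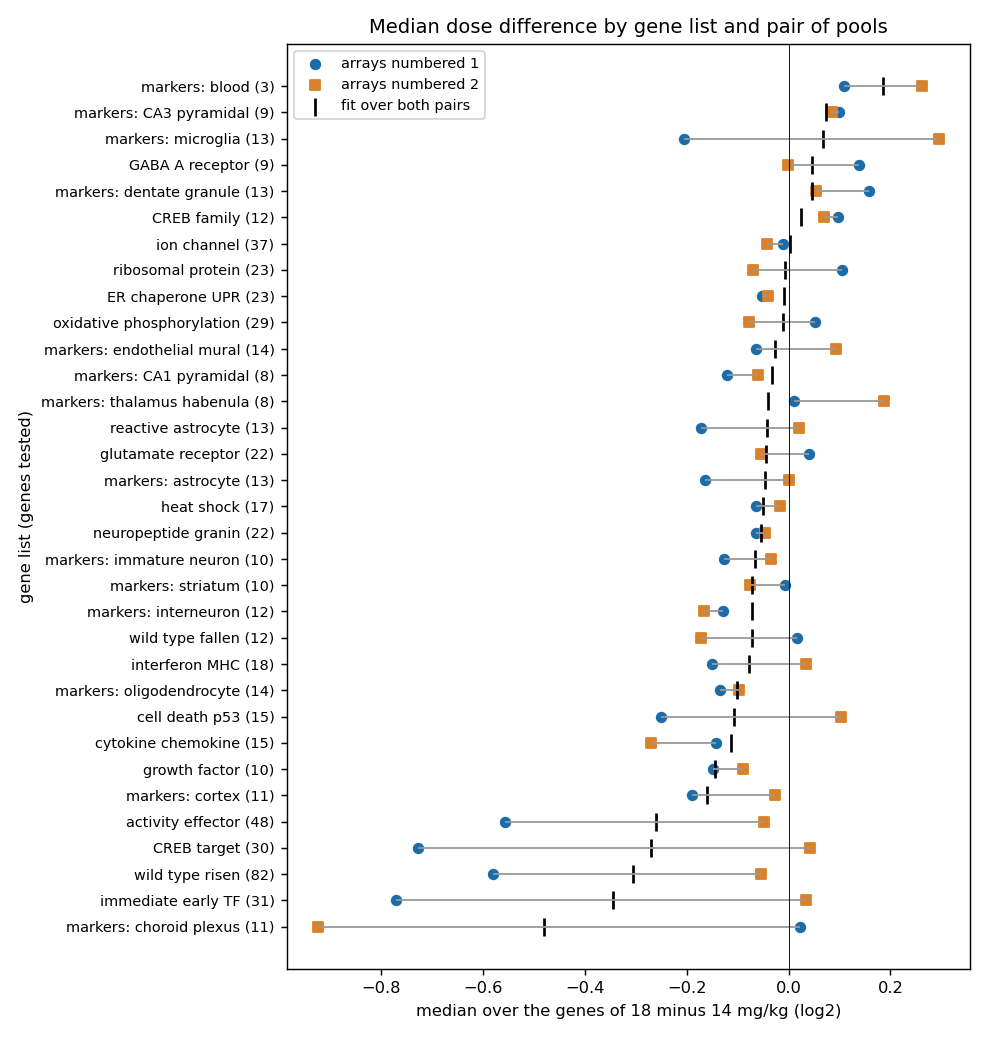
Median dose difference (log2, 18 minus 14 mg/kg) of each gene list in the pair numbered 1 (circles), the pair numbered 2 (squares) and the fit over both pairs (black bars), with the number of genes tested in brackets. The inducible lists lie far below 0 in the pair numbered 1 (-0.77 for immediate-early transcription factors) and near 0 in the pair numbered 2, and the choroid plexus markers lie at 0.02 and -0.92 in the pairs numbered 1 and 2.

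Markers of other cell types were examined for each pair of pools. Of 13 microglia markers, 12 were below 0 in the pair numbered 1 (median -0.21). In the pair numbered 2, 1 was below 0 (median 0.30). Their mean log2 level was 10.75 and 10.27 on replicates 1 and 2 at 14 mg/kg, and 10.51 and 10.54 at 18 mg/kg. For the 82 genes that rose in wild-type mice it was 11.31 and 11.26 at 14 mg/kg, and 10.70 and 11.26 at 18 mg/kg. The pools were thus split at 14 mg/kg for the microglia markers and at 18 mg/kg for the 82 genes. Of 13 astrocyte markers, 12 were below 0 in the pair numbered 1 (median -0.16) and 6 in the pair numbered 2 (median 0.0013). None of the microglia or astrocyte markers passed the test of the dose difference. The list with the median farthest from 0 was that of the choroid plexus, the ventricular tissue beside the hippocampus, where 11 of 13 listed markers were tested. Otx2, a homeobox factor of the choroid plexus, had 302 and 500.01 at 14 mg/kg and 286 and 154 at 18 mg/kg. Clic6, a chloride channel protein, had 1349.7 and 1868 against 1395 and 751, and Folr1, the folate receptor, 1353 and 1547 against 1232 and 735. Replicate 2 at 18 mg/kg was the lowest of the 4 kainate arrays for each of the 3. After A-CREB saline Otx2 had 276 and 211, Clic6 1002 and 894, and Folr1 949 and 693. All 11 markers had a dose difference below 0 (median -0.48). Of them 4 had an unadjusted p below 0.05, as had 399 of all 13218 tested genes, and 0 passed the threshold. The median of the 11 markers was 0.02 in the pair numbered 1 and -0.92 in the pair numbered 2. The summed signal of the 11 markers was 41446 and 32481 at 14 mg/kg and 41705 and 25693 at 18 mg/kg, and no marker was at 0. It was 34733 and 27759.5 after A-CREB saline. Against A-CREB saline the median response of the 11 markers was 0.52 at 14 mg/kg and -0.02 at 18 mg/kg. On a bulk array fewer cells of a type and less RNA per cell cannot be told apart, and the part of the choroid plexus, microglia and astrocyte markers in the dose differences was not tested.

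The pools at 18 mg/kg were about as close to each other as those of the other groups. Replicates 1 and 2 at 18 mg/kg had a correlation of 0.957 over the tested genes, against 0.964 at 14 mg/kg and 0.952 to 0.954 in the 3 other groups. Arrays of the same number at the 2 doses were closer, with 0.984 for replicate 1 and 0.981 for replicate 2. Much of the difference between the pools was shared by all groups, since replicate 2 minus replicate 1 at 18 mg/kg correlated at 0.71 with the mean of that difference over the other groups. After the mean of the other groups was subtracted, the SD over genes was 0.38 at 18 mg/kg, 0.36 at 14 mg/kg, 0.42 for A-CREB saline, 0.39 for wild-type saline and 0.40 for wild-type kainate. At 18 mg/kg 304 genes (2.30%) then differed by more than 1, and the other groups had 288 to 385 such genes.

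The 18 mg/kg pools were set apart in the inducible genes. After the same subtraction, replicate 2 exceeded replicate 1 at 18 mg/kg in 73 of the 82 genes that rose in wild-type mice, with a median of 0.54. It did so in 29 of 31 immediate-early transcription factors, with a median of 0.85. Among the 82 genes, the size of the wild-type response correlated with the difference between the 18 mg/kg pools (Pearson 0.58, Spearman 0.66), with the dose difference in the pair numbered 1 (-0.56 and -0.60) and with that in the pair numbered 2 (0.37 and 0.44). These are descriptions over genes measured on the same arrays, and the wild-type arrays enter both the response and the subtraction. In the 41 genes with the larger wild-type response the median pair differences were -0.80 and 0.17, and in the 41 with the smaller response -0.44 and -0.13. After subtraction other lists went the opposite way, with 0 of 11 choroid plexus markers above 0 (median -0.84) and 0 of 10 striatal markers (-0.72). So did oxidative phosphorylation genes (1 of 29, -0.20) and ribosomal protein genes (3 of 23, -0.20). Before subtraction the mean log2 level of the striatal markers was not lower in replicate 2 at 18 mg/kg (8.66) than in replicate 1 (8.49). From replicate 1 to 2 it rose from 8.42 to 10.41 in wild-type kainate and from 8.53 to 9.29 in wild-type saline. In the other A-CREB groups it rose from 8.48 to 8.77 (saline) and from 8.50 to 8.74 (kainate).

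Genes with the largest difference between the 18 mg/kg pools, after subtraction, are given as a description with no test. Gh, growth hormone of the pituitary, was first with 4.43. Trib1, a pseudokinase, had 243 and 726 at 18 mg/kg (2.61 after subtraction), and AU040972 had 3.02. Lower in replicate 2 were Zfp30 (262 and 11.9, with -3.12 after subtraction), Mocos (-2.71), Gas2l2 (-2.64), Snx29 (-2.54), Hes5 (-2.38), Smim22 (-2.32) and 2810029C07Rik (-2.23). Most of these rest on 1 dim value. In replicate 2 at 18 mg/kg, whose median signal was 152, Mocos had 13.8, Gas2l2 8.43, Snx29 27.2, Smim22 26.9 and 2810029C07Rik 7.81. AU040972 had 15.3 in replicate 1 at 18 mg/kg, whose median signal was 106. Hes5, a Notch target of neural progenitors, had 258 and 125 at 18 mg/kg, 104 and 215 at 14 mg/kg and 158 and 733 after saline.

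Pituitary transcripts were present in replicate 2 at 18 mg/kg. Gh had a signal of 9724 there, against 113 in replicate 1 at 18 mg/kg, 101 and 209.6 at 14 mg/kg and 73.1 and 126 after A-CREB saline. Among the wild-type arrays, replicate 2 after saline had 1233 and the other 3 had 40.5 to 196. A list of 9 pituitary genes was then written, after the Gh values had been seen. Pomc, the precursor of ACTH, had 1103 on replicate 2 at 18 mg/kg and 172 on replicate 1, Cga, the shared glycoprotein hormone subunit, 1007 and 10.3, and Tshb, the thyrotropin subunit, 377 and 57.6. Prl, prolactin, had 292 and 33.4 there and 282 on wild-type saline replicate 2. The summed signal of the 9 genes was 12860.4 on replicate 2 at 18 mg/kg, 474 on replicate 1, 532 and 847 at 14 mg/kg, and 2539 on wild-type saline replicate 2. Fshb and Lhb, the gonadotropin subunits, had 1.07 and 30.4 on replicate 1 and 10.2 and 104 on replicate 2 at 18 mg/kg. On replicate 2 at 18 mg/kg, 7 of the 9 genes were more than 2-fold above their median over the arrays. Ghrhr had 159 there, against 213 on wild-type kainate replicate 2. Tbx19 had 84.1 there by its brightest probe set, against 103 on wild-type saline replicate 2. Prl, Cga, Tshb, Fshb, Lhb and Tbx19 were not among the genes tested. The part of these transcripts in the other differences of that pool was not tested.

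**Figure D5:**
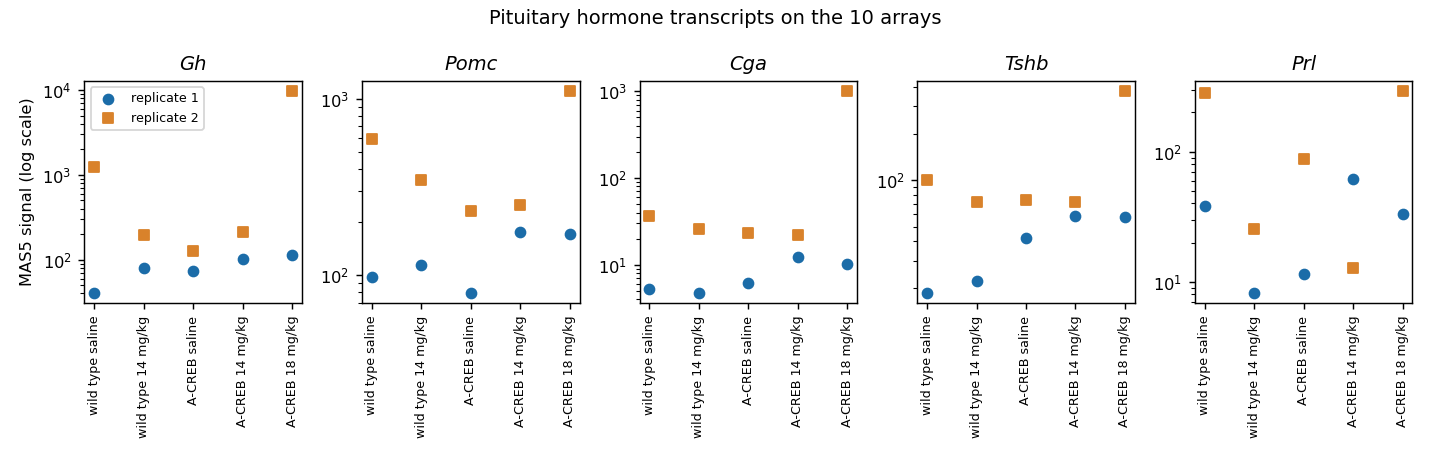
MAS5 signal (log axis) of Gh, Pomc, Cga, Tshb and Prl on each of the 10 arrays by group, with replicate 1 as circles and replicate 2 as squares. Replicate 2 at 18 mg/kg is the highest of the 10 arrays in each panel (9724 for Gh), and wild-type saline replicate 2 is second.

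The wild-type list also depended on its arrays. The striatal markers, 10 genes with summed signals of 5160.9 to 8433 on 9 arrays, reached 19957 on wild-type kainate replicate 2. When the list was chosen without that array it held 67 genes, 58 of them among the 82, with a median dose difference of -0.31. Chosen without the block it held 24 genes with a median of -0.32, and without wild-type saline replicate 2 also 24 genes with a median of -0.32. The pair numbered 1 gave medians of -0.77 to -0.57 over these lists and the pair numbered 2 gave -0.03 to 0.06.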

How the data were processed

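Each array (Affymetrix Mouse430_2) measured hippocampal RNA of 1 pool. The deposited intensity is the MAS5 signal of a probe set, made in GCOS per the submitters' processing notes, with no version given in the sources used here. On the values, the 2% trimmed mean was 500.002 to 500.003 on every array. Of 45101 probe sets, 34945 named 1 gene, 932 several and 9160 none, in a platform table.

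Signals were taken as log2(signal + 22). Probe sets in the upper 60% by mean were kept, and a gene took its brightest one, giving 13218 genes (6173 with several). All 10 arrays were fitted with limma 3.58.1 in R 4.3.3 (group means, replicate number as a block, eBayes with an intensity trend, 4 residual degrees of freedom), two-sided, Benjamini-Hochberg adjusted over all genes, threshold 0.05. The procedure was tested on simulated data with independent noise for each gene and no shift shared by a pool. That test does not show how many true differences would be missed in these pools. The p-values rest on the spread between pools of mice, not between mice, and precision is limited by having 2 arrays a group.

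The labels give every group the numbers 1 and 2 without saying what they mark. The difference of replicate 2 minus 1 correlated between groups at 0.518 to 0.642 in all 10 pairs of groups, and 10 of 10 arrays correlated best with one of the same number, so the numbers were used as pairs.

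The comparison, members and 32 gene lists (549 of 606 entries with a probe set) were chosen with earlier results of these data known. Named genes are the 8 with the smallest p in each direction, the 12 with the largest wild-type rise, up to 3 of each list by smallest p, Creb1 and the 10 that differed most between the 18 mg/kg pools; the genes of the promoter stretches, the pituitary list, and Cxcl14, Homer1 and Socs3 where they fall outside it were chosen after their values were seen. Alternatives were other pseudocounts, filters, normalizations, probe set rules, variance models and sets of arrays, no block, and leaving out each array.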

Additional observations from a re-analysis of the deposited data

How the results depend on the processing

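The count of genes that differed between the doses was 0 under every alternative run but one, the fit of only the 4 A-CREB kainate arrays, which gave 3 with 1 residual degree of freedom. Without the replicate block it was 0, with 75 genes at an unadjusted p below 0.05. Responses were less stable in number. At 14 mg/kg 167 genes passed, against 41 without the replicate block, 68 with no intensity trend and 64 to 265 when each array was left out in turn. At 18 mg/kg 92 passed, against 31 without the replicate block, 18 with no intensity trend, 46 with no filter and 35 to 183 when each array was left out. When arrays were left out, the lowest counts came without replicate 1 at 14 mg/kg (64; 74 without replicate 2) and without replicate 2 at 18 mg/kg (35), and the highest without A-CREB saline replicate 2 (265 and 183). The cause was not tested. No response or dose difference of a named gene that passed the test changed direction. The median dose difference of the 82 wild-type-induced genes ran from -0.64 to -0.0004 when each array was left out. The named responses lost their call in 20 cases at 14 mg/kg and 31 at 18 mg/kg over all alternatives. With 2 arrays a group, the 95% interval of a dose difference had a median half-width of 0.41 before any adjustment over genes.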
